A study of Mus musculus with 7 samples.

Results

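Genes induced by interferons were examined in pancreatic islets of pregnant mice, comparing PrlR+/- with PrlR+/+ animals. The set was drawn up by name: 51 genes, among them the guanylate-binding proteins with Gbp8, which was included as a gene responsive to lactogens. A gene was measured where a probe set of the array was annotated with its symbol alone, and the probe set of highest mean stood for it. This held for 45 of the 51 genes, out of 19938 genes tested in all. Gbp2, Gbp6, Igtp, Oas1g and Isg15 share their probe sets with other genes, and Ifi44 is not analysed here.

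The islets came from female mice on the C57BL/6 strain background on day 15 of pregnancy, after mating at 12 to 16 weeks of age. There were 3 PrlR+/+ mice, with both alleles of the prolactin receptor gene, and 4 PrlR+/- mice, which carry 1 null allele that the labels do not describe as limited to islets. Each mouse gave 1 Affymetrix array, and all values below are log2 values of a probe set. No treatment other than pregnancy is given for either group. The genotype tag of the PrlR+/+ mice names them wild type and null at once, and the group was taken from the source label. Prlr itself is not analysed here, and the genotypes therefore rest on the labels.

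Interferons are secreted proteins that warn cells of infection. Type I interferons act through Ifnar1 and Ifnar2, and a complex that holds Stat2 and Irf9 then binds the interferon-stimulated response element in gene promoters. Interferon gamma acts through Ifngr1 and Ifngr2, and its signal reaches the gamma-activated site. The prolactin receptor also signals through a Janus kinase, Jak2, and mainly through Stat5, whose dimers bind a site with the same outer bases. The induced genes encode antiviral enzymes, GTPases, sensors of foreign RNA and chemokines, and in islets they are known from work on viral infection and autoimmune diabetes.

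The promoters of these genes were searched for both sites, since they are where the signals of interferons and of prolactin would meet the DNA. RefSeq promoter windows (GRCm38.p6) run from 250 bases before to 50 after a gene's start. They were found for 38 of the 51 genes, and Gbp8 was among the 13 without. The response element was searched as GAAA, any 2 bases and GAAA again, on both strands, with overlapping matches counted. The STAT site was searched as TTCNNNGAA, which reads the same on both strands. A response element stood in the windows of 22 of the 38 genes (57.9%), beside 3.99% of 27025 genes with a window. A STAT site stood in those of 14 genes (36.8%), beside 9.55%. Interferon response was the reason these genes were chosen. The STAT site searched is also the form of the gamma-activated site of interferon gamma, so both shares describe the choice. Matched letters are not shown to be bound sites.

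The 5 windows printed here carry the motifs in different arrangements and belong to genes whose values by mouse are given below. Matched bases are in capitals, and positions count from 1 at the window's 5′ end. The Gbp7 window (chr3:142530086-142530385, plus strand) holds STAT sites at bases 145 to 153 and 164 to 172 and a response element on the reverse strand at 198 to 207. That of Ifit3 (chr19:34583279-34583578, plus strand) holds response elements on the reverse strand at bases 95 to 104 and 129 to 138. In Ifitm3 (chr7:141010695-141010994, minus strand) response elements at 253 to 262 and 270 to 279 lie behind the start, and a STAT site at 264 to 272 overlaps the latter. In Cxcl10 (chr5:92348840-92349139, minus strand) the response element is at 38 to 47, far from the start. The Irf1 window (chr11:53769764-53770063, plus strand, 1 of 2 windows of this gene) holds a STAT site at 161 to 169 and no response element.
Gbp7: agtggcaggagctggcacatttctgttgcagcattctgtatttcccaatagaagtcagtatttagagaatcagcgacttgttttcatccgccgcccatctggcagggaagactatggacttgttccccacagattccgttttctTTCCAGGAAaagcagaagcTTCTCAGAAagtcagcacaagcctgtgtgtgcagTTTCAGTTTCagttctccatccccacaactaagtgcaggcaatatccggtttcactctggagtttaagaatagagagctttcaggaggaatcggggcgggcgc
Ifit3: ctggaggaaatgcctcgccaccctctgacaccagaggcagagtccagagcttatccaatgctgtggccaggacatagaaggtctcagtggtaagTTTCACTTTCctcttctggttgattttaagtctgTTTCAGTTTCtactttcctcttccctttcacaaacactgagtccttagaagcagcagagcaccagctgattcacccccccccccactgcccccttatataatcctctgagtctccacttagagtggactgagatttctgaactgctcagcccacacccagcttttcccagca
Ifitm3: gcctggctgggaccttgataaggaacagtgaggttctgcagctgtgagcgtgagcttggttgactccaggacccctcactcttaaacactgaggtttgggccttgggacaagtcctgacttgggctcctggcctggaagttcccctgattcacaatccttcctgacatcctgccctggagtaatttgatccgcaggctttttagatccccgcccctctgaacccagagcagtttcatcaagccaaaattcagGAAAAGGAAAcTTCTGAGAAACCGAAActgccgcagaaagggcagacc
Cxcl10: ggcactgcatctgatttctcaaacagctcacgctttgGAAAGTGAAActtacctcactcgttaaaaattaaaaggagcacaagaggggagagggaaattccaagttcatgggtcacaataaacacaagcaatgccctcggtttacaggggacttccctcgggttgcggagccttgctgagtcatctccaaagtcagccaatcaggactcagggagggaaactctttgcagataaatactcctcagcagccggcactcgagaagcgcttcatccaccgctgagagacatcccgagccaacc
Irf1: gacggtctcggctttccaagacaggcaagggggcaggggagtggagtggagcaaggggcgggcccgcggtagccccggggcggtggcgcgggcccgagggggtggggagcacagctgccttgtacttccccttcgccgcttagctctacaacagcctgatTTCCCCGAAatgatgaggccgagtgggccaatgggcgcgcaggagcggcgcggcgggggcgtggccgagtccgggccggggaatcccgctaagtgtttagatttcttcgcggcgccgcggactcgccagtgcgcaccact

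The arrays had gene medians between 7.34 and 7.37, and islet endocrine markers averaged 12.481 to 12.668 per mouse on an array whose values ran from 1.73 to 13.97, with the insulin gene Ins2 at 13.23 to 13.36. Probe sets without a listed gene split the arrays: their median was 5.92 to 5.95 in PrlR+/+ 1, PrlR+/+ 3 and PrlR+/- 2, and 5.64 to 5.78 in the other 4 mice. What these probe sets hold is not given in the sources used here. Many values were exactly equal between arrays: 34.5% of all genes and 8 of the 45 interferon-induced genes had the same value on 3 or more of the 7 arrays, and Parp14, a poly-ADP-ribosyltransferase, was at 7.90 on all of them. The table gives no detection call, and 5 of the 45 genes (Gbp5, Ifit2, Iigp1, Mx1 and Mx2) had means below 5.71, the lower quartile of gene means, where a value may not reflect transcripts.

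The comparison asked whether the loss of a prolactin receptor allele changes interferon-induced transcripts in islets of pregnancy. None of the 45 genes passed in the limma test over all genes (adjusted p under 0.05), where 0% of the 19938 genes were called, and the smallest adjusted p of a member was 0.99. At an unadjusted p under 0.05 there was 1 gene, Bst2, higher in PrlR+/-, beside 2.2% of all genes (1.07% higher and 1.13% lower). Another gene, Xaf1, also higher, had groups that did not overlap, beside 2.24% of all genes (1.03% higher and 1.21% lower). Both counts are near those shares. PrlR+/- means were higher for 27 genes, lower for 16 and equal for 2, beside higher means for 55.7% of all genes. The median difference, PrlR+/- minus PrlR+/+, was 0.030 on the log2 scale beside 0.0142 over all genes. The 95% interval of the difference lay within 1.5-fold in both directions for 36 of the 45 genes, beside 89.9% of all genes, and within 2-fold for 41. Those outside 2-fold were Gbp8, Ifitm3, Rsad2 and Cxcl10, for which the data leave a wide range of differences.

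**Figure D1:**
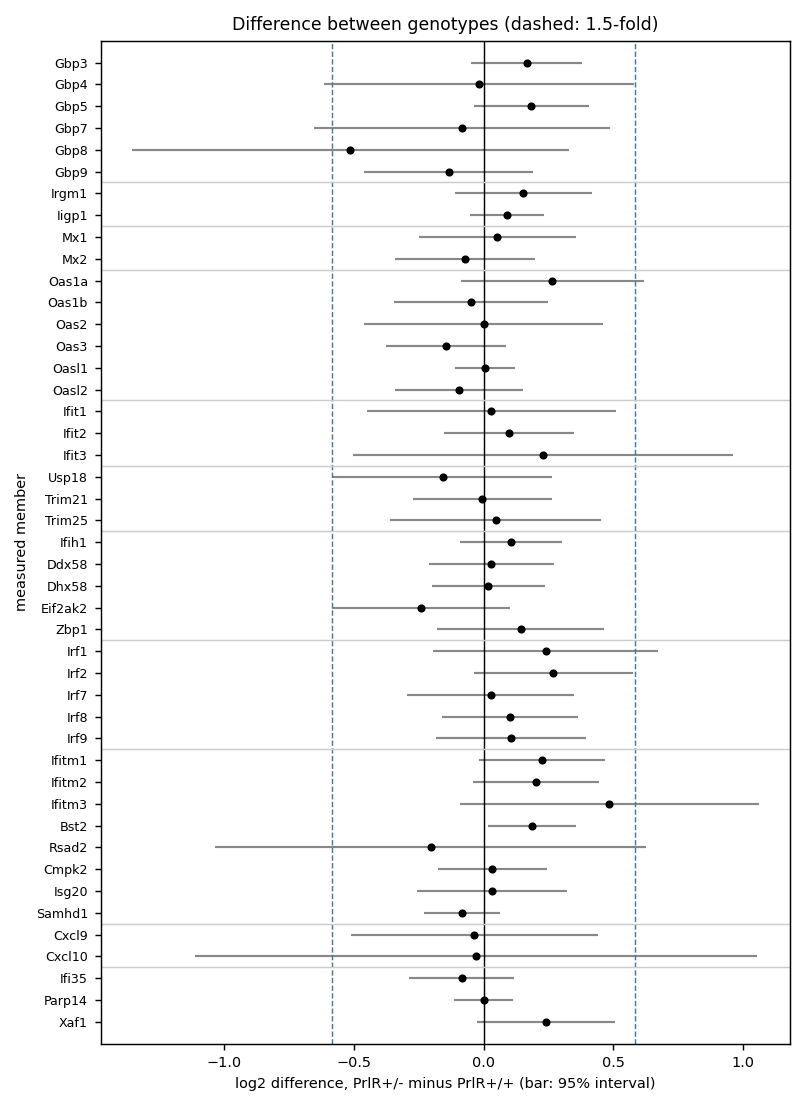
Log2 difference of each measured gene, PrlR+/- minus PrlR+/+ (dots), with its 95% interval from limma (bars) and the 1.5-fold bounds (dashed lines). Grey lines part the role groups; the widest intervals are those of Cxcl10, Gbp8, Rsad2, Ifit3 and Gbp4.

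The guanylate-binding proteins are interferon-induced GTPases that attack membranes around pathogens. Of 8 genes in the set 6 were measured, 2 with higher and 4 with lower means in PrlR+/- islets, and their median difference was -0.0508. Gbp3, Gbp5 and Gbp7 lie in a cluster on chromosome 3, and Gbp4, Gbp8 and Gbp9 in another on chromosome 5 (RefSeq, GRCm38.p6). Members of a cluster are close relatives, so their probes may bind transcripts of each other.

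Values of individual mice are given throughout in the order of mouse numbers, 1 to 3 for PrlR+/+ and 1 to 4 for PrlR+/-. Gbp8 (probe set 10531972) had log2 values of 9.11, 7.81 and 8.87 in PrlR+/+ mice and of 8.28, 8.64, 7.70 and 7.71 in PrlR+/- mice. The highest mice were PrlR+/+ 1 and PrlR+/+ 3 and the lowest PrlR+/- 3 and PrlR+/- 4, but PrlR+/+ 2 lay among the lowest, and the groups overlapped. The PrlR+/- mean was 8.08 ± 0.46 (SD, n = 4) and the PrlR+/+ mean 8.60 ± 0.69 (SD, n = 3). The difference of -0.51 ± 0.36 (SE) had a 95% interval from -1.355 to 0.327 and did not pass (limma, unadjusted p = 0.193, adjusted p = 0.99). Leaving out PrlR+/+ 2 moved the difference to -0.908, and leaving out PrlR+/+ 1 to -0.258. The arrays with the higher median of unlisted probe sets held the 3 highest Gbp8 values. Within those arrays the difference was -0.35, with PrlR+/- 2 as the only PrlR+/- mouse. Within the other 4 it was 0.087, with PrlR+/+ 2 as the only PrlR+/+ mouse. Each of these differences therefore rests on 1 mouse of a genotype. With that median as a covariate, added after the data were seen, the Gbp8 difference was -0.266. The part of this array difference in the Gbp8 result was not tested.

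Gbp7 (probe set 10496569) followed a similar order of mice, at 9.02, 8.35 and 9.23 in PrlR+/+ and 8.85, 9.16, 8.71 and 8.41 in PrlR+/- mice. Gbp4 (probe set 10531987) was at 7.10, 6.35 and 6.92 in PrlR+/+ and at 6.59, 7.37, 6.51 and 6.62 in PrlR+/- mice. For both, as for Gbp8, the 3 highest mice were PrlR+/+ 1, PrlR+/+ 3 and PrlR+/- 2, and the genotypes overlapped, with differences of -0.084 ± 0.243 and -0.017 ± 0.255 (SE). Gbp4 in PrlR+/- 2 stood apart from the other 3 PrlR+/- mice, which lay between 6.51 and 6.62. Gbp9 ranged from 6.47 in PrlR+/- 4 to 7.02 in PrlR+/- 2, with a difference of -0.135 ± 0.139 (SE). It was -0.057 without PrlR+/- 4, -0.077 without PrlR+/- 1, -0.080 without PrlR+/+ 3 and -0.240 without PrlR+/- 2.

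Gbp3 (probe set 10496580), at 6.48, 6.36 and 6.62 in PrlR+/+ and 6.81, 6.65, 6.53 and 6.62 in PrlR+/- mice, differed by 0.17 ± 0.09 (SE; limma, unadjusted p = 0.109), and by 0.102 without PrlR+/+ 2. Gbp5 (probe set 10496539) was dim, at 4.74, 4.85 and 4.67 in PrlR+/+ and 4.87, 4.87, 5.16 and 4.85 in PrlR+/- mice. Its groups met at 4.85, and its difference was 0.18 ± 0.09 (SE; limma, unadjusted p = 0.0899), or 0.110 without PrlR+/- 3. Gbp11 and Gbp2b were measured too but lie outside the set. Gbp11, on chromosome 5, was at 7.54, 7.18 and 7.93 in PrlR+/+ and 7.06, 7.09, 7.64 and 6.68 in PrlR+/- mice. The groups overlapped, with a difference of -0.432 ± 0.249 (SE, limma, unadjusted p = 0.124). Gbp2b differed by 0.034 ± 0.063 (SE). The family therefore held differences of both signs, and none passed.

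**Figure D2:**
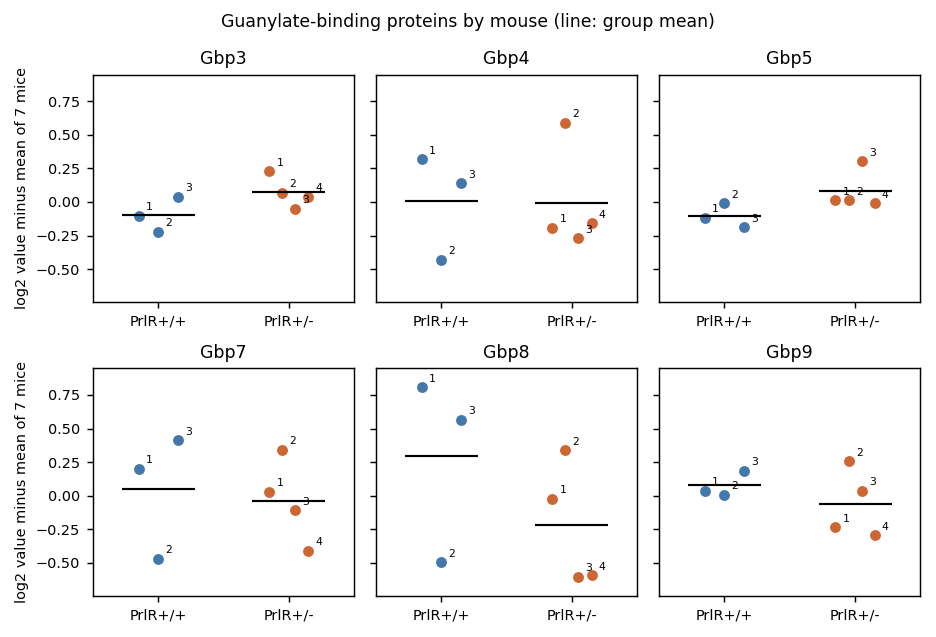
Log2 values of the 6 measured guanylate-binding proteins of the set in each mouse, minus the mean of the 7 mice for that gene. Numbers are mouse numbers within a genotype and lines are group means. In Gbp4, Gbp7 and Gbp8 the mice PrlR+/+ 1, PrlR+/+ 3 and PrlR+/- 2 are the 3 highest and PrlR+/+ 2 is far below the other PrlR+/+ mice.

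The related immunity-related GTPases and Mx proteins, which act on vacuoles of intracellular pathogens and on viral nucleocapsids, differed little. Irgm1 was at 7.82, 7.97 and 7.67 in PrlR+/+ and 7.87, 7.79, 8.14 and 8.09 in PrlR+/- mice, a difference of 0.15 ± 0.11 (SE) that was 0.077 without PrlR+/+ 3 and 0.097 without PrlR+/- 3. Iigp1 was dim, between 5.49 and 5.71 in all mice (0.09 ± 0.06, and 0.042 without PrlR+/+ 2). Mx1 lay between 4.25 and 4.69 and Mx2 between 4.88 and 5.32, with differences of 0.05 ± 0.13 and -0.07 ± 0.12 (SE). In C57BL/6 mice Mx1 is known to carry a defective allele. The genotypes overlapped for Irgm1, Mx1 and Mx2 and met at 5.64 for Iigp1.

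Oligoadenylate synthetases make a second messenger on contact with double-stranded RNA, which activates the RNA-degrading enzyme RNase L. Of the 6 measured, 2 had higher and 3 lower means and 1 was equal, with a median of -0.0246. Oas1a (probe set 10533256) had values of 6.85, 6.44 and 6.93 in PrlR+/+ and 6.95, 6.79, 7.01 and 7.27 in PrlR+/- mice. Its lowest mouse was PrlR+/+ 2 and its highest PrlR+/- 4, and the difference of 0.265 ± 0.151 (SE) was 0.115 without PrlR+/+ 2. Oas3 was at 6.09, 5.92 and 5.92 in PrlR+/+ and 5.92, 5.76, 5.65 and 6.00 in PrlR+/- mice (-0.14 ± 0.10), with -0.088 without PrlR+/+ 1 and -0.083 without PrlR+/- 3. Oas2, at 6.93 in both groups, spanned 6.54 to 7.37 over the mice, while Oasl1 spanned only 7.53 to 7.58. Oas1b and Oasl2 differed by -0.049 ± 0.126 and -0.096 ± 0.105 (SE).

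IFIT proteins bind viral RNA that lacks the methylation of host messages, and their 3 genes had higher means in PrlR+/- islets, by 0.03 to 0.23. Ifit3 (probe set 10462618), whose promoter window above holds 2 response elements, was at 7.36, 6.66 and 7.68 in PrlR+/+ and 7.23, 7.38, 8.14 and 7.10 in PrlR+/- mice. One mouse of each genotype set its range: PrlR+/+ 2 was 2.79-fold below PrlR+/- 3 on the linear scale, and the rest lay between 7.10 and 7.68. Its difference of 0.23 ± 0.31 (SE) was -0.058 without PrlR+/+ 2 and 0.003 without PrlR+/- 3. Ifit1 showed the same extremes, at 7.22 in PrlR+/+ 2 and 8.05 in PrlR+/- 3, and the other 3 PrlR+/- mice were at 7.37 to 7.40. Ifit2 was dim, at 5.64, 5.19 and 5.54 in PrlR+/+ and between 5.54 and 5.58 in all PrlR+/- mice.

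The sensors of viral RNA are Ifih1 (MDA5), Ddx58 (RIG-I) and their relative Dhx58, with the kinase gene Eif2ak2 (PKR), which stops translation, and Zbp1, a sensor of Z-form nucleic acids. Of these 5, 4 had higher and 1 a lower mean, with a median of 0.030. Eif2ak2 (probe set 10452980) had the largest of their differences, -0.24 ± 0.15 (SE), from values of 8.09, 8.26 and 8.01 in PrlR+/+ and 8.01, 7.91, 8.09 and 7.50 in PrlR+/- mice. PrlR+/- 4 was the low mouse, and without it the difference was -0.117. Ifih1 was at 8.43, 8.22 and 8.41 in PrlR+/+ and 8.47, 8.60, 8.40 and 8.36 in PrlR+/- mice (0.10 ± 0.08). Without PrlR+/+ 2 its difference was 0.037, and without PrlR+/- 2 it was 0.057. Ddx58 and Dhx58 differed by 0.03 ± 0.10 and 0.02 ± 0.09, and Zbp1 by 0.14 ± 0.14 (SE).

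In the ISG15 pathway and among TRIM ubiquitin ligases, Usp18, the protease that removes ISG15 and restrains the type I receptor, was at 10.10, 10.04 and 10.29 in PrlR+/+ and 10.24, 9.95, 10.23 and 9.52 in PrlR+/- mice. PrlR+/- 4 again was low, and the difference of -0.16 ± 0.18 (SE) was -0.003 without it. It was -0.085 without PrlR+/+ 3, -0.243 without PrlR+/- 1 and -0.240 without PrlR+/- 3. Trim25, which activates RIG-I, ranged from 9.37 in PrlR+/- 2 to 10.02 in PrlR+/- 3 (0.05 ± 0.17). Trim21, an antibody receptor of the cytosol, ranged from 8.05 in PrlR+/- 2 to 8.46 in PrlR+/- 3 (-0.01 ± 0.11).

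Interferon regulatory factors are transcription factors that relay or limit the response. All 5 in the set had higher means in PrlR+/- islets, with a median of 0.105, and none passed. Irf3 and Irf5, listed with the routes that induce interferon, had lower means, with differences of -0.024 ± 0.072 and -0.081 ± 0.103 (SE). Irf2 (probe set 10571705), a repressor that competes with the activator Irf1, was at 9.65, 9.72 and 9.87 in PrlR+/+ and 9.87, 9.77, 10.17 and 10.25 in PrlR+/- mice. Only PrlR+/+ 3 reached into the PrlR+/- range, and the difference was 0.27 ± 0.13 (SE; limma, unadjusted p = 0.0773). Irf1 (probe set 10376060) was at 8.67, 9.02 and 8.66 in PrlR+/+ and 8.85, 8.67, 9.17 and 9.40 in PrlR+/- mice. Its difference of 0.239 ± 0.185 (SE) was 0.113 without PrlR+/- 4, and its other probe set gave 0.287. Irf7, which amplifies type I interferon, and Irf9, the DNA-binding part of the STAT complex, differed by 0.027 ± 0.137 and 0.105 ± 0.123 (SE). Irf8, a factor of myeloid and B cells, was at 6.85 in 3 of the PrlR+/- mice and 7.22 in PrlR+/- 4. That mouse had the highest value of 4 of the 5 factors, beside 31.3% of all genes. It also had the highest mean of 11 lymphocyte markers, 5.885 beside 5.534 to 5.647 in the other mice, and the highest lower quartile of genes, 5.82 beside 5.62 to 5.73. Their part in the values of these factors was not tested.

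Among virus restriction factors and related enzymes 6 of 8 had higher means and 2 lower means in PrlR+/- islets, with a median of 0.110. Bst2 (probe set 10579532), which encodes tetherin, a protein that holds budding virus at the membrane, was at 7.39, 7.49 and 7.61 in PrlR+/+ and 7.71, 7.66, 7.61 and 7.75 in PrlR+/- mice. The groups met at 7.61, shared by PrlR+/+ 3 and PrlR+/- 3. The difference of 0.19 ± 0.07 (SE) had the smallest unadjusted p of the set, 0.0342, and did not pass (limma, adjusted p = 0.99). It lay between 0.132 and 0.242 when each mouse was left out.

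The IFITM proteins, which block fusion of viruses in endosomes, had higher means in PrlR+/- islets for all 3 genes. Ifitm3 (probe set 10569017) was at 10.13, 9.48 and 9.89 in PrlR+/+ and 9.97, 10.83, 9.99 and 10.48 in PrlR+/- mice. Its difference of 0.48 ± 0.25 (SE; limma, unadjusted p = 0.0881) was the highest of the 45 genes. It was 0.308 without PrlR+/+ 2 and 0.313 without PrlR+/- 2. Ifitm1 (probe set 10558769) was at 7.98, 7.80 and 7.86 in PrlR+/+ and 7.92, 8.21, 8.0 and 8.29 in PrlR+/- mice, a difference of 0.225 ± 0.104 (SE), and its other probe set gave 0.286. Ifitm2 differed by 0.20 ± 0.10 (SE), and its other probe sets by 0.128 and 0.314. PrlR+/- 2, highest for Ifitm2 and Ifitm3, also had the highest means of endothelial (9.165 beside 8.867 to 8.978), fibroblast (7.889 beside 7.386 to 7.649) and acinar markers (12.324 beside 11.578 to 12.021). Between genotypes, 8 of 12 endothelial, 8 of 9 fibroblast and 9 of 10 acinar markers had higher PrlR+/- means, beside 55.7% of all genes. Their median differences were 0.0712, 0.095 and 0.137, and 0 passed. The part of these cells in the IFITM values was not tested, and in whole islets more cells of a type and more RNA per cell cannot be told apart.

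Of the remaining restriction genes 2 had higher and 2 lower means in PrlR+/- islets. Rsad2, the antiviral enzyme viperin, was at 8.45, 8.14 and 8.81 in PrlR+/+ and 8.49, 8.80, 8.47 and 7.29 in PrlR+/- mice, so that PrlR+/- 4 was the lowest of all. Its neighbour Cmpk2, a mitochondrial nucleotide kinase, stayed between 9.49 and 9.82. Isg20, an exonuclease, lay between 11.91 in PrlR+/+ 2 and 12.39 in PrlR+/+ 1, and Samhd1, which depletes nucleotides, between 9.38 and 9.60 (-0.083 ± 0.062).

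The chemokines Cxcl9 and Cxcl10, which draw T cells through the receptor Cxcr3, varied between mice more than between genotypes. Cxcl10 (probe set 10531415) was at 8.49, 6.72 and 8.34 in PrlR+/+ and 7.93, 7.17, 8.37 and 7.81 in PrlR+/- mice. Its highest and lowest mice were both PrlR+/+ and 3.41-fold apart on the linear scale, the widest range of the 45 genes. The difference of -0.03 ± 0.46 (SE) ran from -0.595 without PrlR+/+ 2 to 0.290 without PrlR+/+ 1. Cxcl9 was at 6.76, 5.90 and 6.43 in PrlR+/+ and 6.12, 6.24, 6.57 and 6.38 in PrlR+/- mice (-0.04 ± 0.20).

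Xaf1 (probe set 10378068), an antagonist of the apoptosis inhibitor XIAP, was the gene whose groups did not overlap. It was at 6.85, 6.46 and 6.85 in PrlR+/+ and 6.87, 7.09, 6.99 and 6.89 in PrlR+/- mice, so that 0.02 parted the genotypes. Its difference was 0.24 ± 0.11 (SE; limma, unadjusted p = 0.07), and 0.110 without PrlR+/+ 2. Ifi35, a partner of the interferon-induced protein Nmi, was at 8.25, 8.10 and 8.16 in PrlR+/+ and 8.16, 8.22, 8.04 and 7.92 in PrlR+/- mice (-0.085 ± 0.086). Its difference was -0.030 without PrlR+/- 4, -0.045 without PrlR+/+ 1 and -0.130 without PrlR+/- 2.

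**Figure D3:**
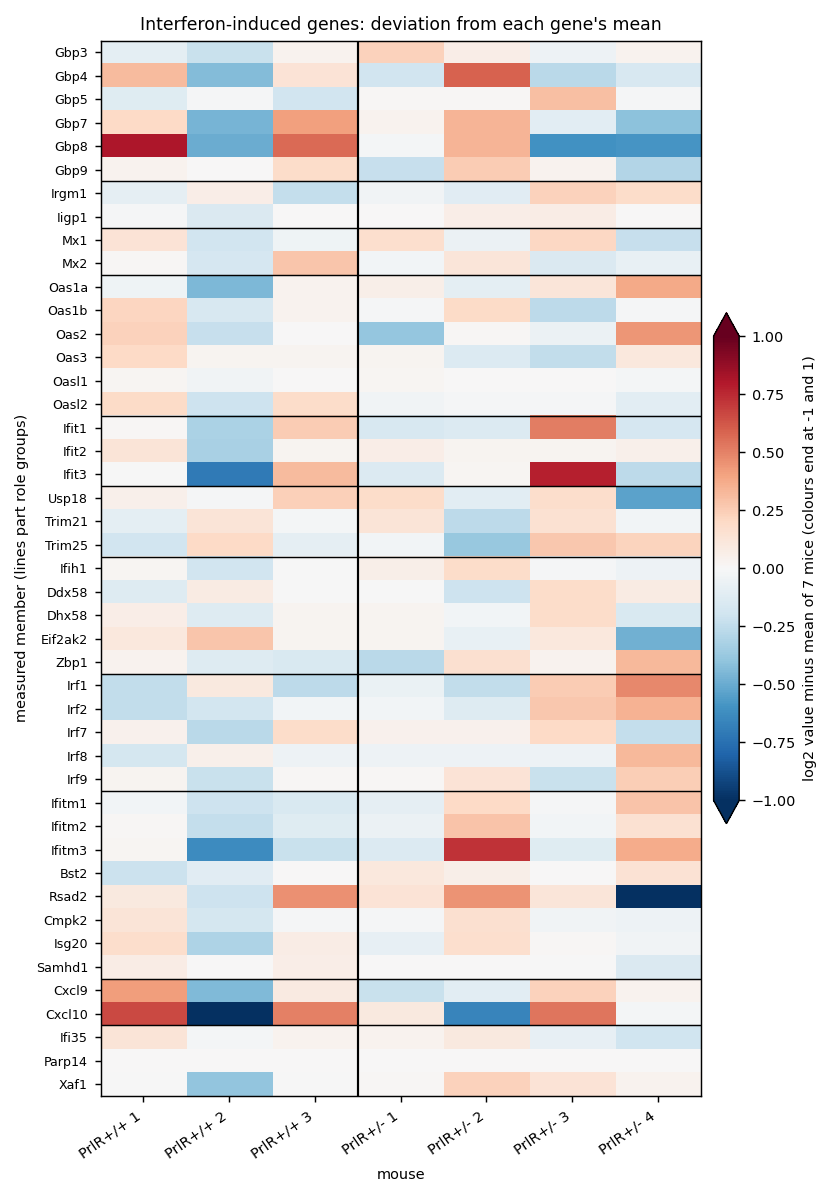
Log2 value of each measured gene in each mouse minus the mean of the 7 mice for that gene (colour), with role groups parted by lines and PrlR+/+ mice left of the vertical line. The column of PrlR+/+ 2 is mostly blue, with the deepest values in Cxcl10, Ifit3 and Ifitm3, and Rsad2 and Usp18 are deep blue in PrlR+/- 4.

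One PrlR+/+ animal, PrlR+/+ 2, stood low across much of the set. Of the 44 genes that were not equal on all arrays, 22 (50%) had their lowest value in that mouse, beside 15.4% of all genes; ties count for each mouse that shares them. They include all 3 IFIT genes, all 3 IFITM genes and both chemokines, with Gbp3, Gbp4, Gbp7, Oas1a, Ifih1, Irf7, Irf9, Isg20 and Xaf1. Only Eif2ak2 was highest there (2.27%, beside 15.2% of all genes). Averaged over the 45 genes, PrlR+/+ 2 stood at 7.596, while the other 6 mice stood at 7.763 to 7.850. After quantile normalization the lowest value was in that mouse for 18 of 45 genes (all genes 10.6%), and after median centring for 14 (6.47%).

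**Figure D4:**
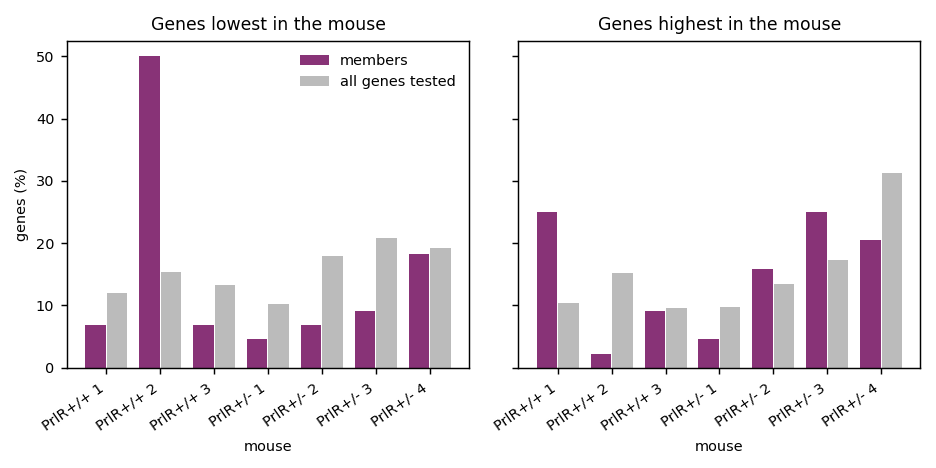
Share of the measured interferon-induced genes (purple) and of all genes tested (grey) whose lowest (left) or highest (right) value lies in each mouse, in percent. PrlR+/+ 2 holds the lowest value of 50% of the interferon-induced genes and of 15.4% of all genes.

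The mean of macrophage and myeloid markers was low in the same mouse, though not every marker was. All 17 were measured, and their mean was 7.019 in PrlR+/+ 2 beside 7.384 and 7.444 in the other PrlR+/+ mice and 7.335 to 7.452 in PrlR+/- mice. Of the 17, 8 were lowest in PrlR+/+ 2, among them C1qc, a part of complement C1q, at 7.70 beside 8.59 to 9.16, and Fcer1g, an Fc receptor subunit, at 7.57 beside 8.29 to 8.94. For Csf1r, the receptor that macrophages depend on, PrlR+/+ 2 at 7.42 lay inside the range of the other mice, 7.34 to 7.58. Mrc1, at 5.53, was tied for its highest value there, and Cd14, at 5.96, was exceeded only by PrlR+/- 2 at 6.02. Lymphocyte markers were not low there, with a mean of 5.621. Between genotypes, 13 of 17 macrophage and 11 of 11 lymphocyte markers had higher PrlR+/- means, beside 55.7% of all genes. Their median differences were 0.060 and 0.10, and 0 passed. The 4 macrophage markers with lower means included Ptprc (-0.072) and Mrc1 (-0.092). Lyz2, the lysozyme gene of myeloid cells, was at 8.19, 8.05 and 7.93 in PrlR+/+ and 8.80, 8.72, 8.49 and 8.79 in PrlR+/- mice. Its groups did not overlap, beside 2.24% of all genes, and its difference was 0.64 ± 0.10 (SE, limma, unadjusted p = 0.000291, adjusted p = 0.99). This unadjusted p was the smallest of all 19938 genes. Lyz2 was the only 1 of the 17 markers with an unadjusted p under 0.05. With the mean of macrophage and lymphocyte markers as a covariate the median difference of the 45 genes was -0.0106, that of Gbp8 -0.951, and that of Ifitm3 0.181, and 0 genes were called. The array of PrlR+/+ 2 also had a lower median of unlisted probe sets, 5.66 beside 5.95 and 5.92 in the other PrlR+/+ mice. In this it went with PrlR+/- 1, PrlR+/- 3 and PrlR+/- 4. The part of immune cells and of this array difference in the low values of PrlR+/+ 2 was not tested. Without that mouse the median difference was -0.035 in place of 0.030.

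**Figure D5:**
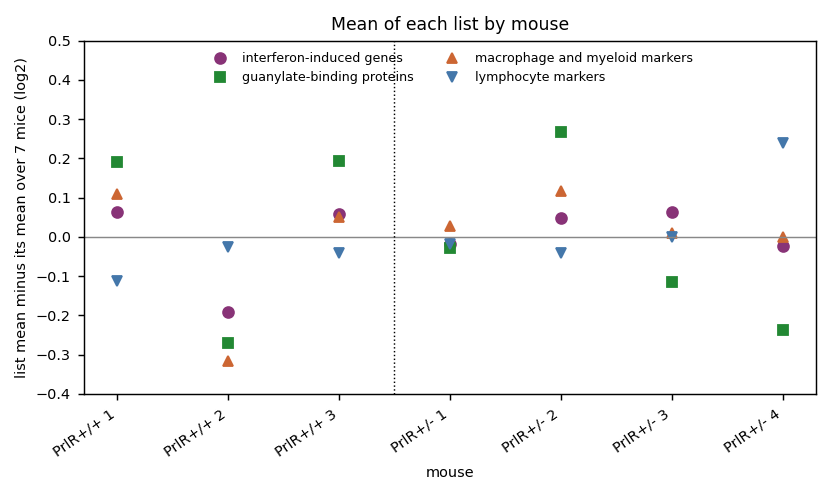
Mean log2 value of 4 gene lists in each mouse, minus the mean of that list over the 7 mice, with PrlR+/+ mice left of the dotted line. In PrlR+/+ 2 the means of the interferon-induced genes, the guanylate-binding proteins and the macrophage markers are low, while the mean of lymphocyte markers is high in PrlR+/- 4.

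The PrlR+/- mice differed among themselves in which genes were high. In PrlR+/- 3, 11 genes had their highest value, among them Ifit1, Ifit3, Ddx58, Dhx58, Trim25 and Irf7. In PrlR+/- 4, 9 were highest, among them Irf1, Irf2, Irf9, Oas2, Zbp1 and Bst2, and 8 lowest, among them Rsad2, Usp18, Eif2ak2 and Mx1. For all genes the shares highest in these mice were 17.3% and 31.3%, beside 25% and 20.5% of the interferon-induced genes. The share lowest in PrlR+/- 4 was 19.3% of all genes, close to the 18.2% of the interferon-induced genes. Antiviral genes that share a promoter motif did not all follow 1 order of mice. A response element stood in the window of 9 of the 19 genes with a window that were lowest in PrlR+/+ 2, and of 9 of the 14 other measured genes.

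Upstream of these genes, no gene of the interferon pathway passed either (limma, smallest adjusted p 0.99). Of 135 further genes of the pathway 114 were measured: 65 had higher and 48 lower means, with a median of 0.0167, and 0 passed in either direction. Of 16 interferon genes, 11 had higher means; Ifnb1 lay between 4.93 and 5.07 and Ifng between 5.92 and 6.12, both low on the array. Ifna11 and Ifnab, below the lower quartile of gene means, differed by -0.15 ± 0.07 and 0.27 ± 0.17 (SE). Of the 16 interferon genes 10 were highest in PrlR+/- 4, beside 31.3% of all genes, and the lower quartile of genes was highest in that mouse. The receptor genes split 3 and 3, with Ifngr2 at -0.18 ± 0.10 and Il10rb, which serves interferon lambda and interleukin 10, at 0.21 ± 0.11. Ifnar1 and Ifnar2 differed by -0.05 ± 0.07 and 0.04 ± 0.06.

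Among kinases and STAT factors Jak2 was at -0.19 ± 0.10, Jak1 at -0.13 ± 0.12 and Stat2 at 0.08 ± 0.08 (SE). Of 10 inhibitors 5 had higher and 5 lower means. Socs3 was at 8.03, 8.76 and 8.07 in PrlR+/+ and 8.04, 7.92, 7.71 and 8.29 in PrlR+/- mice (-0.30 ± 0.21), so that PrlR+/+ 2 was the highest mouse; Otud5 differed by -0.08 ± 0.06. Of 14 genes listed with the routes that induce interferon, not all of which drive it, 6 had higher and 8 lower means. Aim2 and Tlr9, sensors of DNA, differed by 0.13 ± 0.08 and 0.09 ± 0.07.

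Of 63 other interferon-induced genes, 37 had higher and 25 lower means, and 2 had an unadjusted p under 0.05, beside 2.2% of all genes. Both were higher in PrlR+/- (1.07% of all genes), and they were the only 2 of the 114 pathway genes. The groups of 1 gene, Trim12c, did not overlap, beside 2.24% of all genes. It was lower in PrlR+/-, by -0.176 ± 0.085 (SE). Psmb10, a catalytic subunit of the immunoproteasome, was at 8.27, 8.63 and 8.14 in PrlR+/+ and 8.63, 8.78, 8.70 and 8.91 in PrlR+/- mice. PrlR+/+ 2 and PrlR+/- 1 shared the value where the groups met, and the difference was 0.41 ± 0.13 (SE; limma, unadjusted p = 0.0136, adjusted p = 0.99). Slfn8, of the Schlafen family, was dim and differed by 0.22 ± 0.09 (SE; limma, unadjusted p = 0.0387). Of the 63 genes 15 were lowest in PrlR+/+ 2 and 14 in PrlR+/- 2, beside 15.4% and 18% of all genes.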

How the data were processed

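RNA of islets from 7 mice was measured on 1 Affymetrix array each; per the labels, 250 ng of RNA with an integrity number above 8.5 was labelled with biotin. The authors deposited log2 values with 2 decimals for 35556 probe sets, a scale inferred from their range. They used Affymetrix Expression Console 1.2.0.20, per the submitters' processing notes. How background was corrected and how arrays were normalized and summarized is not given in the sources used here, nor are scan dates. Precision is limited by having 3 and 4 arrays.

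In the platform annotation 21789 probe sets had 1 symbol, 1621 several and 12146 none listed. Of the first, 21698 matched RefSeq (GRCm38.p6), with 0 symbols changed. The probe set of highest mean stood for each of 19938 genes, with no filter. Differences are PrlR+/- minus PrlR+/+ from limma 3.58.1 (lmFit, then eBayes; R 4.3.3); its 2-sided p-values were adjusted by Benjamini-Hochberg over all genes. Counts and promoter matches were made in Python 3.11.15 with pandas 2.3.3. For this comparison limma was also tested on simulated data in which 200 of 19938 genes were changed, by 1.5-fold, 2-fold or 4-fold in near equal parts. It called 58.5%, 85.8% and 98.2% of these. The adjusted p depends on all changed genes together, so the shares hold for that mix and may be lower with fewer or smaller changes. The simulated noise was independent between genes, without the shared shifts and equal values of these arrays. The median standard error was 0.123 for the measured members and 0.0977 for all genes, so these shares may not hold for the members. Alternatives were quantile normalization, median centring, the mean of all probe sets, filters on dim genes, array weights, other eBayes settings, marker means as a covariate, a replicate block and leaving out each mouse.

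The members, lists, tests and naming rule were chosen with earlier results of these data known. Values by mouse were due for Gbp8, the 2 members of smallest unadjusted p in each role group, guanylate-binding proteins with an unadjusted p under 0.2, and members with an unadjusted p under 0.05 or groups that do not overlap. Members with 1 PrlR+/- mouse apart are named too. Pathway genes were named at an unadjusted p under 0.05, or else the 2 smallest of a list. Gbp4, Gbp7, Gbp9, the other IFITM genes, Rsad2 and the other examples were taken after their values were seen. The planned comparison of protein sequences was not made. Of the marker lists, natural killer (7 genes) and dendritic markers (6) had median differences of 0.0642 and -0.00542, and islet endocrine markers (13) 0.0333; 0 of each passed.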

Additional observations from a re-analysis of the deposited data

Results flagged for a closer look

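In 5 of 44 genes, 1 of the 4 PrlR+/- mice lay far from the other 3 for the range of the group (above Dixon's 95% critical value); chance flags about 1 in 20 groups. That is 11.4% of these genes, beside 15.2% of the 19759 genes not equal in all 4 PrlR+/- mice. Ties between arrays enter both shares. Gbp4 in PrlR+/- 2 was at 7.37, with the other PrlR+/- mice at 6.51 to 6.62. Gbp5 in PrlR+/- 3 was at 5.16, with the others at 4.85 to 4.87. Ifit1 in PrlR+/- 3 was at 8.05, with the others from 7.37 to 7.40. Irf8 in PrlR+/- 4 was at 7.22, with the others all at 6.85. Samhd1 in PrlR+/- 4 was at 9.38, with the others at 9.52 to 9.53.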

How the results depend on the processing

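Over 20 alternatives, an adjusted p under 0.1 among them, 0 of the measured genes were called, and the smallest adjusted p of a member was 0.818. The count at an unadjusted p under 0.05, 1 gene, was 2 with array weights (all genes 5.68%) and with the mean of all probe sets (2.23%), 3 with quantile normalization (2.34%) and with the immune marker covariate (2.43%), 4 with median centring (1.52%), 5 with the median of unlisted probe sets as a covariate, added after the data were seen (4.19%), and 0 to 2 without single mice (1.24% to 3.98%). The count of groups that did not overlap, 1 gene, was 3 with quantile normalization (all genes 3.57%), 5 with median centring (2.24%) and 2 to 5 without single mice (3.54% to 10.3%). The median of the guanylate-binding proteins ran from -0.213 to 0.0725 without single mice, and that of all members from -0.035 to 0.107. Gbp8 kept its sign over these alternatives, from -0.908 to -0.258 without single mice. Within the arrays of lower unlisted probe set median, which hold 1 PrlR+/+ mouse, its difference was 0.087. Higher means were found for 19 to 31 genes.

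Signs turned for differences smaller than their standard errors. Array weights gave -0.059 for Ifit3 and -0.154 for Ifit1; the immune covariate -0.054 for Ifit2 and -0.076 for Ifit1; the unlisted probe set covariate -0.066 for Trim25, 0.029 for Cxcl9, 0.059 for Cxcl10, 0.167 for Gbp4 and 0.061 for Gbp7. Without single mice the ranges that crossed 0 were -0.595 to 0.290 for Cxcl10, -0.268 to 0.162 for Cxcl9, -0.238 to 0.137 for Gbp4, -0.343 to 0.097 for Gbp7, -0.137 to 0.165 for Ifit1, -0.035 to 0.190 for Ifit2, -0.058 to 0.452 for Ifit3, -0.028 to 0.137 for Mx1, -0.175 to 0.045 for Mx2 and -0.037 to 0.180 for Trim25. The cause was not tested. The replicate numbers name different mice. Same-numbered mice deviated from their group means with correlations of 0.0896, -0.386 and -0.0287 across genes. Those of unlike-numbered mice ran from -0.238 to 0.398. Deviations from means of 3 and 4 mice also hold array differences, so these correlations cannot decide whether the numbers pair mice. The fit with the replicate block, which leaves PrlR+/- 4 without a partner and so without weight, called 0 genes, gave -0.39 for Gbp8 and a median of 0.0367 for the guanylate-binding proteins, and turned Trim25 (-0.020), Gbp4 (0.033) and Gbp7 (0.040). Filters on dim genes kept 36 and 35 of the 45 genes.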
